A study of Danio rerio with 49 samples.

Results

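The genes described here are the zebrafish haemoglobin genes named as embryonic (hbae1.1, hbae1.3, hbae3, hbae5, hbbe1.1, hbbe2 and hbbe3) and the adult-type pair hbaa1 and hbba1. They were chosen by gene name, ignoring case, from a list of 9 names. Values were held for 6 of these 9 names, among 32520 genes with values in all: 5 embryonic globins (hbae1.1, ENSDARG00000089475; hbae1.3, ENSDARG00000089124; hbae3, ENSDARG00000079305; hbae5, ENSDARG00000045142; hbbe3, ENSDARG00000038147) and hbaa1 (ENSDARG00000097011). The name hbbe2 was listed without values, and hbbe1.1 and hbba1 were not analysed here under their own names. Wildtype zebrafish (WT) were set beside mutants lacking both maternal and zygotic function of rlig1, which encodes an RNA ligase (MZrlig1). Whole embryos, raised in the dark, were taken at the 4-cell stage (4 pools per genotype), at sphere (2 per genotype) and at shield, bud, 1 day post fertilization (dpf) and 5 dpf (3 per genotype), in pools of 10 animals up to shield and 8 from bud on. Heads at 5 dpf were pooled from 8 larvae raised on a cycle of 14 h light and 10 h dark and labelled as showing good behaviour (4 WT and 2 MZrlig1 libraries) or bad behaviour (3 WT and 4 MZrlig1 libraries). Clutch, parents and sex of the pooled animals were not given, so p-values measure the spread between these pools.

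Haemoglobin, the oxygen carrier of red cells, is a tetramer of alpha-type and beta-type chains, each holding a haem group. Zebrafish, like other vertebrates, switch globins as they develop: the first, primitive red cells make embryonic chains, larvae use a changed set, and definitive red cells later make adult chains. Names beginning hba stand for alpha-type and hbb for beta-type chains, and the next letter marks embryonic (e) or adult (a) genes. The genes lie in 2 clusters. In the RefSeq annotation, which uses a later assembly than the deposited tables and was read for gene order only, hbae4, hbbe3, hbbe2 and hbae5 neighbour each other in 1 cluster. The other holds hbaa1 and hbba1 followed by alternating embryonic beta and alpha genes: hbbe1.1, hbae1.1, hbbe1.2, hbae1.2, hbbe1.3, hbae1.3 and, last, hbae3. Genes hbae1.1, hbae1.2 and hbae1.3 are numbered copies within 1 cluster, so reads could be split between them and each copy's value is uncertain.

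The tables also held 3 other haemoglobin genes by name (hbae1.2, hbae4 and hbaa2) and 7 beta-type identifiers that all carry the human-style name HBE1. The HBE1 identifiers fall outside the membership rule and were added after their values had been seen, since hbbe3 was otherwise the only beta-type gene. They are given by identifier and were not matched to zebrafish names. All 16 identifiers together comprised 8 alpha-type and 8 beta-type genes.

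Total counts ranged from 12158453 to 18355308 per library. Counts of rlig1 ranged from 19 to 1084 in WT libraries and came to 6 over all MZrlig1 libraries. Replicate a of MZrlig1 at 1 dpf stood apart: only 7815 genes were detected in it, where its companions at 1 dpf had 22619 to 22841, and ribosomal protein genes took 49.5% of its counts, against 8.0% to 10.9%. Haemoglobin genes took 1.13% of its counts, against 0.187% to 0.254% in the other 1 dpf libraries. Globin results that rest on this library are given with and without it.

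Globin transcripts were close to absent before the bud stage. At the 4-cell stage and sphere no member exceeded 22 counts in any library, and most values were 0. The largest of these, 22 counts of hbae3, stood in replicate a of WT at the 4-cell stage, where the other 3 libraries held 0. At shield hbae3 gave 2, 4 and 95 counts in WT replicates a, b and c, and 8, 3 and 37 in those of MZrlig1. Replicate c was the high library in both genotypes, and the other alpha-type copy hbae1.3 followed it with 30 and 35 counts against 0 to 7 elsewhere at shield. CPM here are counts scaled to library size as adjusted by TMM factors. Markers of muscle (2 matched of 4 listed) summed to 388 CPM in WT replicate c at shield, against 4.40 and 5.19 in the other WT libraries. In MZrlig1 they were highest in replicate a, at 143, against 13.4 and 22.6 in replicates b and c. Their part in the shield counts was not tested. No member passed the filter on low counts at these 3 stages.

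At bud, when the body axis is laid out, hbae3 and hbae1.3 were detected in all 6 libraries. Gene hbae3 gave 48, 70 and 16 counts in WT and 57, 128 and 27 in MZrlig1. Gene hbae1.3 gave 13, 48 and 4 counts in WT and 22, 58 and 2 in MZrlig1. The genotypes overlapped widely for both genes, and in both genotypes replicate b was the highest and replicate c the lowest. Muscle markers summed to 125, 30.8 and 6.37 CPM in the WT bud libraries and to 18.4, 175 and 2.77 in those of MZrlig1, and eye markers were highest in WT replicate a (24.9) and MZrlig1 replicate b (41.2). Their part in the bud counts was not tested. Gene hbae1.1 gave 4, 11 and 2 counts in WT and 20, 14 and 32 in MZrlig1, which did not overlap. Of the 3 members tested at bud none passed an adjusted p of 0.05 in the edgeR quasi-likelihood test with Benjamini-Hochberg adjustment, where 0.814% of all genes did. The difference for hbae1.1 was 1.75 ± 0.65 (log2, SE), with an adjusted p of 0.333. Gene hbbe3 was scattered, with 3, 65 and 4 counts in WT and 31, 0 and 0 in MZrlig1, and hbae5 reached 1 count at most.

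**Figure D1:**
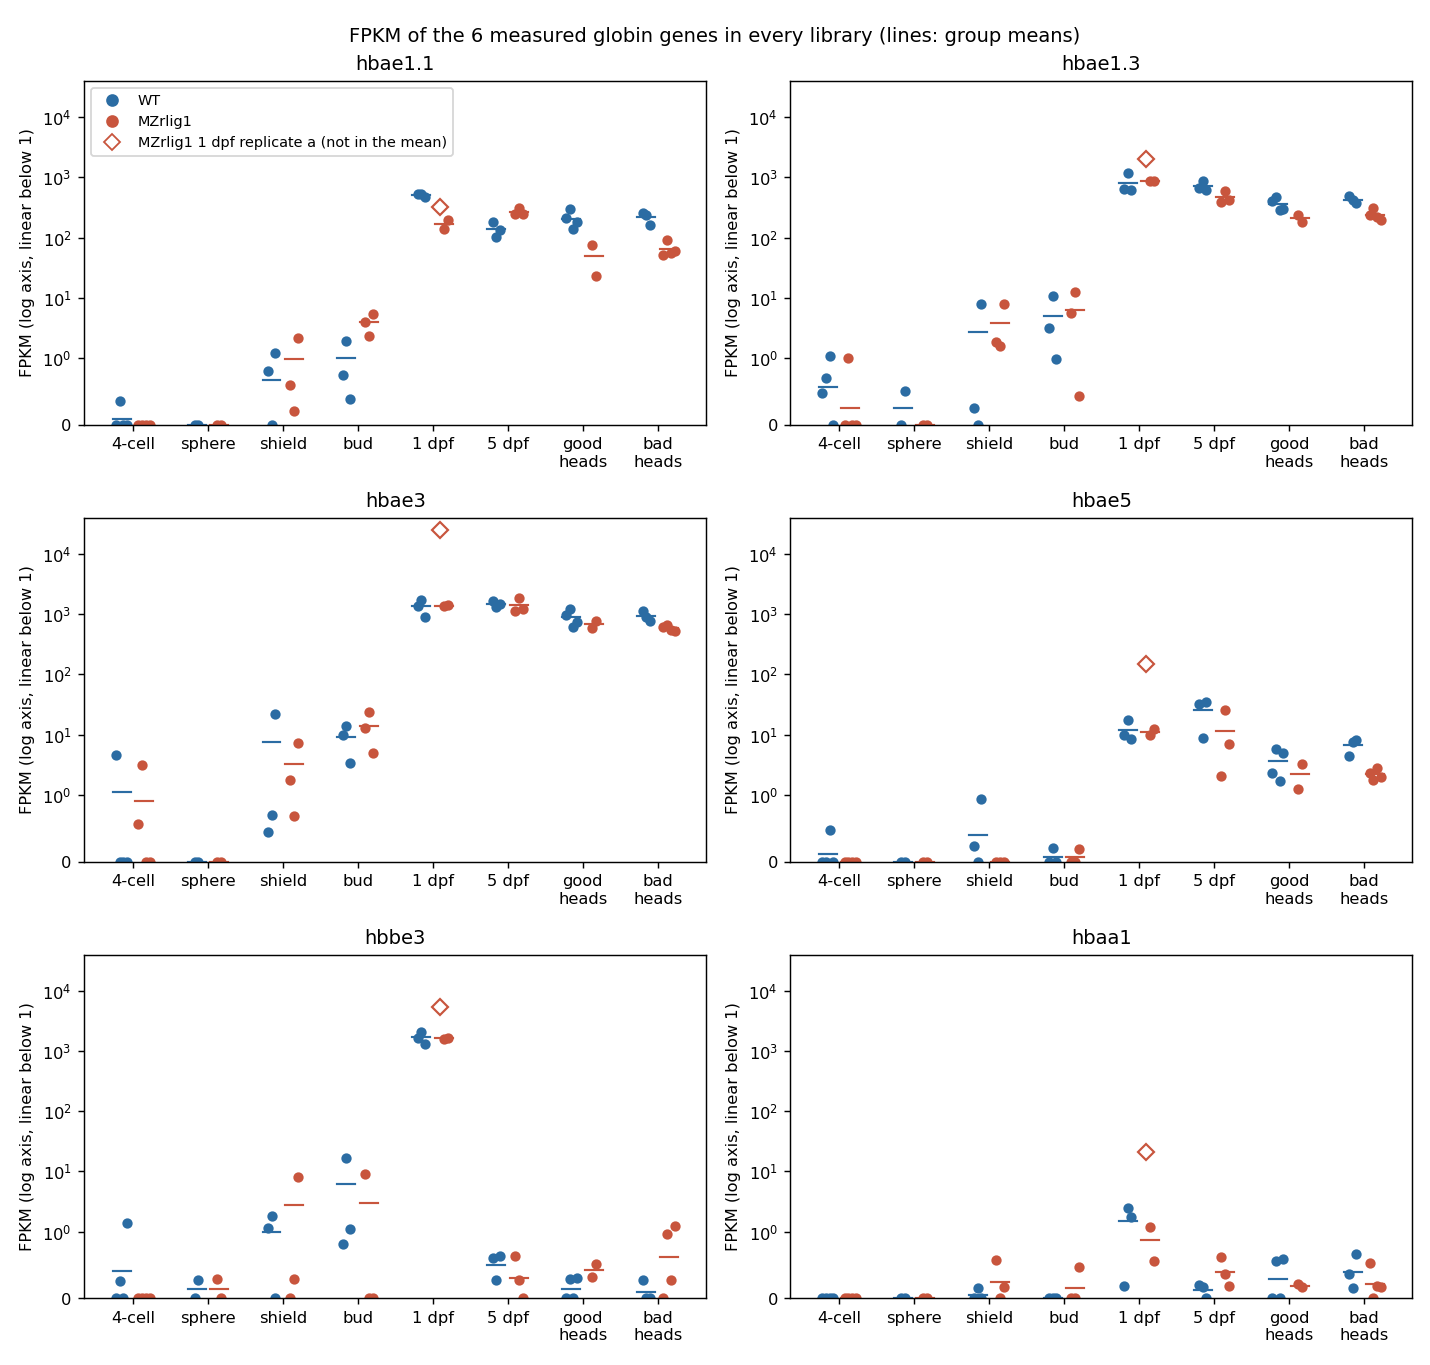
FPKM (fragments scaled to transcript length and library depth) of the 6 measured globin genes in every library, by stage and head group, on a logarithmic axis that is linear below 1; lines are group means. The embryonic genes rise between bud and 1 dpf, hbbe3 alone among them is back near 0 at 5 dpf, and hbaa1 stays low throughout. The open diamond is replicate a of MZrlig1 at 1 dpf, which was left out of the mean.

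Between bud and 1 dpf all 5 embryonic members rose in both genotypes. In WT at 1 dpf hbae3, an embryonic alpha chain, gave 6461, 8392 and 3474 counts, and hbbe3, an embryonic beta chain, gave 5930, 7754 and 3895. In MZrlig1 hbae3 gave 115942, 5770 and 6289 counts and hbbe3 18636, 5242 and 5795. Every 1 dpf library lay far above every bud library of its gene, replicate a of MZrlig1 was the highest of all, and without it the values of the genotypes overlapped. In WT the log2 change was 6.81 ± 1.60 for hbae3, 7.60 ± 1.94 for hbbe3, 8.50 ± 0.97 for hbae1.1 and 6.90 ± 1.38 for hbae1.3. Their adjusted p-values in the edgeR fit were 0.0153, 0.0206, 0.000363 and 0.00735. All 5 of the 5 members tested were called higher in WT, where 15.1% of all genes were, and all 5 in MZrlig1, where 12.4% were. Genes hbbe3 and hbae5 were not among the 3 members that passed the filter on low counts at bud. They entered this fit through their 1 dpf counts and could only be called higher, so their calls add nothing to the count. In WT the calls of hbae3, hbbe3 and hbae5 were lost when single WT libraries at bud or 1 dpf were left out, with adjusted p-values up to 0.0676, 0.0819 and 0.104, and those of hbae1.1 and hbae1.3 were kept. Without replicate a of MZrlig1 all 5 were again called higher in both genotypes, against 37.4% of all genes in WT and 33.9% in MZrlig1. The median change of the 5 members without replicate a was 6.95 in WT and 6.65 in MZrlig1 (log2), where the median over all genes was 0.168 and 0.115.

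Gene hbae5, an alpha-type gene beside hbbe3 in the first cluster, entered at a far lower level. It gave 44, 81 and 31 counts in WT at 1 dpf and 657, 40 and 53 in MZrlig1, after 1 count over all bud libraries of each genotype. Scaled by total counts, the WT sums at 1 dpf and bud stood in a ratio of 172, with an exact 95% interval of 30.4 to 6830 that covers counting error only. Without replicate a the MZrlig1 ratio was 161 (28.3 to 6440). Its neighbour hbae4 had 0 counts in all 6 bud libraries and 59 to 106 in every 1 dpf library, replicate a included.

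The genotypes differed in this rise for hbae1.1 when replicate a was left out. The rise of hbae1.1 was then smaller in MZrlig1 than in WT by a log2 difference of -3.35 ± 0.57, with an adjusted p of 0.0495, and it was the 1 member called of 5 tested, where 0.208% of all genes were called. With replicate a the difference was -2.13 ± 1.04, and no member and 0% of all genes were called. With the replicate letter as a block, and replicate a left out, the difference was -3.37 with an adjusted p of 0.0976. The call was thus lost, as it was when all whole-embryo libraries but replicate a were fitted together. Bud libraries of the same letter deviated together in this fit, though whether the letters pair them was not settled. The bud side of this comparison rests on at most 32 counts in a library.

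In FPKM, which scales by transcript length, the order of the levels at 1 dpf was the same in WT and in MZrlig1 replicates b and c. In WT hbbe3 stood at 1690 ± 389 FPKM (SD, n = 3), hbae3 at 1348 ± 421, hbae1.3 at 820 ± 324, hbae1.1 at 510 ± 32.7 and hbae5 at 11.9 ± 4.92. The ranges of hbbe3 and hbae3 overlapped, as did those of hbae3 and hbae1.3, although hbbe3 lay above hbae3 within each of these 5 libraries. From hbae1.3 down the WT ranges were separate. Without replicate a MZrlig1 stood at 1630 ± 59.9 FPKM for hbbe3, 1373 ± 36.7 for hbae3, 879 for hbae1.3 and 166 ± 41.0 for hbae1.1 (n = 2). Both of these libraries lay below the WT range for hbae1.1 and within it for the other 3 genes.

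Gene hbbe3 alone made up 38.8% ± 1.13 of the summed FPKM of the 6 members in WT at 1 dpf and 40.2% ± 0.12 in MZrlig1 without replicate a. Replicate a differed in make-up, since hbae3 took 76.6% and hbbe3 16.0% of its sum. Over all 16 haemoglobin identifiers hbbe3 held 21.3% ± 1.75 in WT, and the alpha-type genes summed to 0.968 ± 0.0996 times the beta-type genes. That ratio was 1.15 ± 0.0254 in MZrlig1 without replicate a and 3.11 in replicate a.

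**Figure D2:**
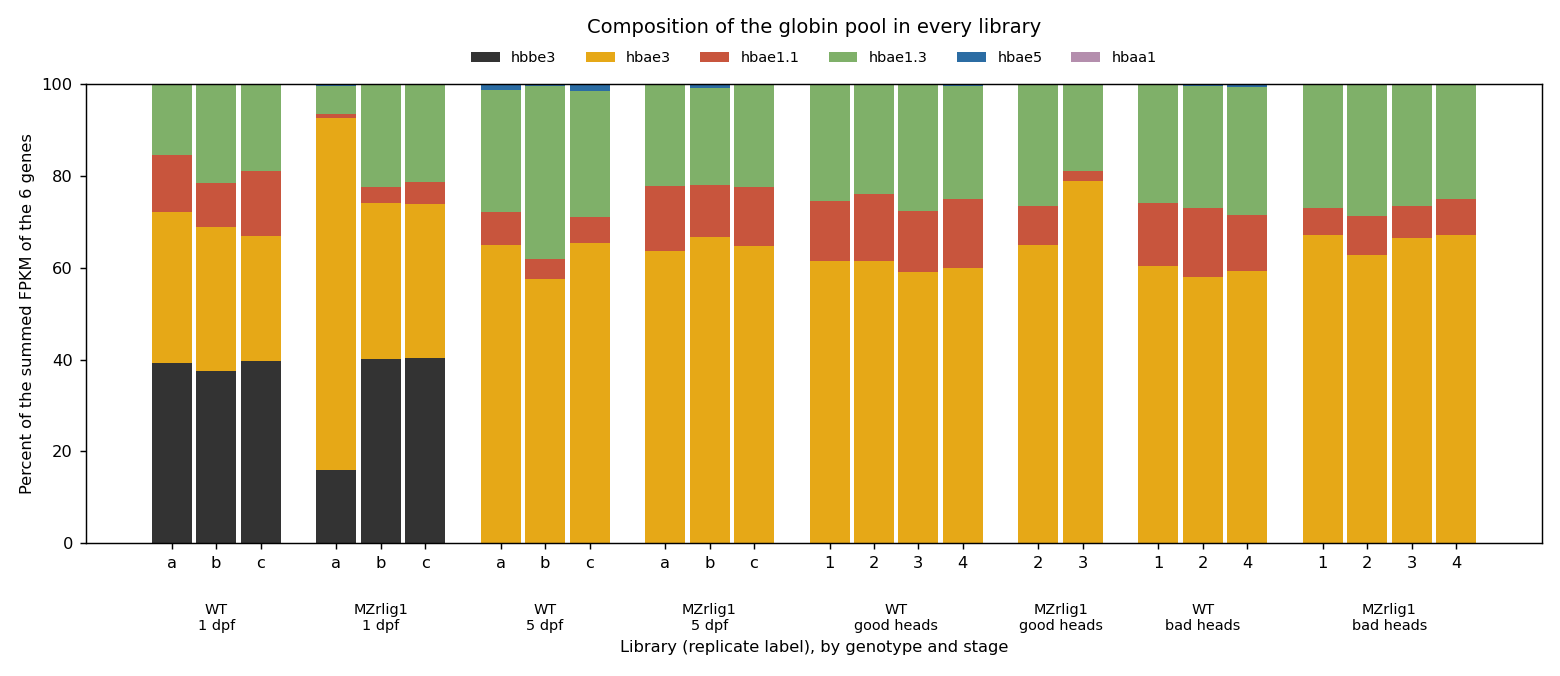
Share of each of the 6 measured globin genes in their summed FPKM, in percent, 1 bar for each library at 1 dpf, at 5 dpf and in heads at 5 dpf. The hbbe3 share is near 40% in all 1 dpf libraries but replicate a of MZrlig1 and too small to see at 5 dpf, and hbae3 takes 57.5% or more of every 5 dpf whole-larva bar. The only beta-type gene in these sums is hbbe3, and the HBE1 identifiers are left out of them.

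The switch from 1 to 5 dpf was sharpest in hbbe3. Its counts fell from 3895 to 7754 in WT to 2, 1 and 2, and from 5242 and 5795 in MZrlig1 replicates b and c to 2, 1 and 0. No 5 dpf library held more than 2 counts. Scaled by total counts, the WT level at 1 dpf was 3460 times that at 5 dpf, with an exact interval of 1480 to 10700 for counting error, and the MZrlig1 level without replicate a was 5540 times (1900 to 26900). The fitted change was -11.57 ± 1.22 (log2) in WT, with an adjusted p of 0.000148. In MZrlig1 it was -13.83 ± 1.32, or -12.22 ± 0.38 without replicate a, with adjusted p-values of 9.19e-05 and 7.16e-12. Its share of the members' pool fell to 0.0213% ± 0.00838 in WT and 0.0151% ± 0.0182 in MZrlig1. The genotypes did not differ in this fall beyond error, with a difference of -0.55 ± 1.1 (log2) without replicate a and an adjusted p of 0.944. In whole-animal RNA, fewer cells of a type and less RNA per cell cannot be told apart.

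The other embryonic genes were still present at 5 dpf. Gene hbae3 gave 6948, 6266 and 6068 counts in WT at 5 dpf and 4686, 8681 and 5400 in MZrlig1. These values overlapped those of 1 dpf apart from replicate a, and the WT change was 0.18 ± 1.14 (log2), or 0.10 ± 0.26 without replicate a. In MZrlig1 hbae3 was called lower with replicate a in the fit (-3.77 ± 1.27, adjusted p 0.0438) and stood at 0.11 ± 0.29 without it, so that the call rested on 1 library with 115942 counts. With hbbe3 gone, hbae3 held 62.5% ± 4.41 of the members' FPKM in WT and 65.0% ± 1.51 in MZrlig1 at 5 dpf, up from 30.5% ± 2.89 in WT at 1 dpf.

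Gene hbae1.1, an embryonic alpha copy, fell in WT. It went from 2722, 2857 and 2010 counts at 1 dpf to 850, 535 and 596 at 5 dpf, with no overlap. The change was -1.84 ± 0.58 (log2, adjusted p 0.0355), and -1.92 ± 0.23 without replicate a (adjusted p 2.15e-06). With replicate a in the fit, the WT call was lost without any 1 of the 6 WT libraries and without replicate a or c of MZrlig1 at 5 dpf, with adjusted p-values up to 0.131. In MZrlig1 its counts were 1660, 652 and 975 at 1 dpf and 1149, 1633 and 1202 at 5 dpf. With all libraries the MZrlig1 change was -0.33 ± 0.56 (adjusted p 0.728), and without replicate a hbae1.1 rose by 0.76 ± 0.25 (adjusted p 0.0139). When all whole-embryo libraries but replicate a were fitted together, the rise was 0.79 and was not called (adjusted p 0.107). The direction in MZrlig1 thus depended on that library, whose 1660 counts lay above both other MZrlig1 libraries at 1 dpf.

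Gene hbae1.3, a further alpha copy, did not pass in WT, at -0.15 ± 0.62 (log2), with 2608, 4957 and 2055 counts at 1 dpf and 2473, 3568 and 2215 at 5 dpf. In MZrlig1 it fell from 7877, 3267 and 3418 counts to 1414, 2395 and 1601. That fall was -2.07 ± 0.64 (adjusted p 0.0311), or -0.83 ± 0.29 without replicate a (adjusted p 0.0177). The groups did not overlap in MZrlig1 with or without that library, and the call was lost without any 1 of the 3 libraries at 5 dpf, with adjusted p-values up to 0.108. Gene hbae5 was not called in either genotype and was uneven at 5 dpf, with 131, 41 and 136 counts in WT and 8, 115 and 30 in MZrlig1.

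In all, 2 of 5 members tested were called lower in WT between 1 and 5 dpf, where 8.38% of all genes were, and 0 called higher, where 20.5% were. In MZrlig1 3 were called lower, against 9.26% of all genes, and 0 higher, against 23.0%. Without replicate a the WT counts were again 2 lower (35.0% of all genes) and 0 higher (38.8%), and those of MZrlig1 were 2 lower (32.5%) and 1 higher (37.3%). Each of these counts of lower calls includes hbbe3. That gene passed the filter on low counts through its 1 dpf libraries alone and could only be called lower, so its call adds nothing to the count. The difference between the genotypes in this step was called for no member with replicate a, with 0% of all genes called. Without it hbae1.1 was called among the 5 tested, at 2.68 ± 0.34 (log2, MZrlig1 minus WT, adjusted p 0.00399), where 0.263% of all genes were. That call was not made when all whole-embryo libraries but replicate a were fitted together.

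Of the beta-type identifiers that carry the name HBE1, 4 could be tested from 1 to 5 dpf, and they moved in different directions. In WT 1 was called lower and 0 higher, or 2 lower and 2 higher without replicate a. Of all genes 8.38% were called lower and 20.5% higher in WT, or 35.0% and 38.8% without replicate a. In MZrlig1 1 was called lower and 0 higher, or 1 lower and 2 higher without replicate a. The shares of all genes there were 9.26% and 23.0%, or 32.5% and 37.3%. Identifier ENSDARG00000113599 gave 5451, 7152 and 4523 counts in WT at 1 dpf and 11068, 10316 and 9531 at 5 dpf, with no overlap, and its share of all 16 identifiers went from 17.0% ± 1.65 to 37.2% ± 2.53. Its change in WT was 0.94 ± 0.50 (log2, adjusted p 0.203), and 0.86 ± 0.20 without replicate a (adjusted p 0.00154). In MZrlig1 it stood at -0.49 ± 0.49, and without replicate a at 0.42 with a 95% interval of -0.03 to 0.87. Identifier ENSDARG00000045143 went from 378, 529 and 259 counts to 3000, 2224 and 2458 in WT, a change of 2.82 ± 1.06 (adjusted p 0.0728), and its change in MZrlig1 was -0.35 ± 0.99 (adjusted p 0.841). Without replicate a it was called in both genotypes, at 2.74 ± 0.29 in WT and 2.66 ± 0.34 in MZrlig1 (adjusted p 6.67e-07 and 6.01e-06). ENSDARG00000115405 fell in WT, at -1.92 ± 0.64, or -2.0 ± 0.23 without replicate a (adjusted p 0.0445 and 1.36e-06), and the first of these calls was lost with single libraries left out (adjusted p up to 0.138). In MZrlig1 it stood at -0.32 ± 0.62 with replicate a and rose by 0.99 ± 0.25 without it (adjusted p 0.00285). When all whole-embryo libraries but replicate a were fitted together, that rise was not called (adjusted p 0.101). ENSDARG00000087390 stood at -0.63 ± 0.46 in WT and fell in MZrlig1, at -1.47 ± 0.47 (adjusted p 0.0351); without replicate a it fell in both, at -0.70 ± 0.21 and -0.73 ± 0.23. The summed FPKM of all 16 identifiers was 7854 ± 1186 in WT at 1 dpf and 6659 ± 980 at 5 dpf, and the ranges overlapped. The ratio of alpha-type to beta-type FPKM was 0.934 ± 0.0941 in WT and 1.04 ± 0.0124 in MZrlig1 at 5 dpf. In the first cluster hbae4 fell with its neighbour hbbe3, at -2.23 ± 0.50 in WT and -2.52 ± 0.51 in MZrlig1 (log2, adjusted p 0.00647 and 0.00347); without replicate a the MZrlig1 change was -2.29 ± 0.38.

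The adult-type alpha gene hbaa1 was close to absent throughout. It gave 1, 14 and 8 counts in WT at 1 dpf and 1, 1 and 0 at 5 dpf. In MZrlig1 it gave 114, 6 and 3 counts at 1 dpf, the 114 standing in replicate a, and 3, 2 and 1 at 5 dpf. In the 13 head libraries it lay between 0 and 4 counts. Its share of the members' FPKM was at most 0.0636% in any library from 1 dpf on. It passed the filter on low counts in none of the comparisons, so no test is given, and no change was detectable at this depth. The paralogue hbaa2, also adult-type by name, reached at most 14 counts, all of its values above 5 lying at shield and bud.

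Whether the mutant differed from WT was tested stage by stage. At 1 dpf no member of the 5 tested was called, and 0% of all genes were. The members' differences ranged from -0.28 to 4.20 (log2), with an adjusted p of 0.968 for each, and the median over all genes was -0.41. Without replicate a hbae1.1 was called lower in MZrlig1, at -1.61 ± 0.18 (log2, 3.04-fold, adjusted p 0.00216), where 0.592% of all genes were called lower. The other 4 members tested lay between -0.13 and 0.10. When all whole-embryo libraries but replicate a were fitted together, hbae1.1 was not called at 1 dpf. The raw WT counts of 2010 to 2857 lay above all 3 MZrlig1 libraries, replicate a with its 1660 included, though that library held more of every other member than any WT library. After the scaling used in the test this did not hold for replicate a. With it kept, the difference for hbae1.1 was 0.13 without MZrlig1 replicate b and 0.05 without replicate c.

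At 5 dpf in whole larvae the order was the opposite. MZrlig1 held 1149, 1633 and 1202 counts of hbae1.1, all above the WT counts of 850, 535 and 596. The difference was 1.04 ± 0.23 (log2) with an adjusted p of 0.107, so that no member of 4 tested was called, against 1.02% of all genes. HBE1 identifier ENSDARG00000115405 ran alongside, with 566, 538 and 527 counts in WT and 1065, 1588 and 1066 in MZrlig1, and was called at 1.24 ± 0.18 (adjusted p 0.0174), though not without MZrlig1 replicate a or without any 1 of the WT libraries (adjusted p up to 0.114). It was not called with the replicate block (adjusted p 0.136) or when all whole-embryo libraries were fitted together (0.541 or more). It had also moved with hbae1.1 at 1 dpf, where it was lower in MZrlig1 by a log2 difference of -1.72 ± 0.24 without replicate a (adjusted p 0.00774). Like hbae1.1, it was not called at 1 dpf when all whole-embryo libraries but replicate a were fitted together. For hbae3 the 5 dpf difference was 0.01 ± 0.23, with a 95% interval of -0.45 to 0.46, and for hbae1.3 it was -0.54 ± 0.20 (adjusted p 0.406).

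The 3 hbae1 copies were then read as shares of their own sum, because reads could be split between the copies. In WT hbae1.1 made up 20.6% ± 1.25 of the summed FPKM of hbae1.1, hbae1.2 and hbae1.3 at 1 dpf and 8.02% ± 0.964 at 5 dpf. In MZrlig1 the shares were 7.19% ± 2.31 at 1 dpf (6.01% ± 1.48 without replicate a) and 17.9% ± 1.33 at 5 dpf. The WT libraries lay between 19.3% and 21.7% at 1 dpf and between 6.94% and 8.79% at 5 dpf, and those of MZrlig1 between 4.96% and 9.56% and between 16.5% and 19.2%. At each stage the genotypes were thus apart without overlap, in opposite order. The sum of the 3 copies showed less: 2477 ± 226 FPKM in WT and 2756 ± 3.51 in MZrlig1 without replicate a at 1 dpf, and 1715 ± 444 and 1520 ± 327 at 5 dpf, with overlap at 5 dpf. Gene hbae1.2 was uneven in WT at 5 dpf, with 4255, 985 and 3884 counts, while hbae1.3 was highest in the library with the 985.

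**Figure D3:**
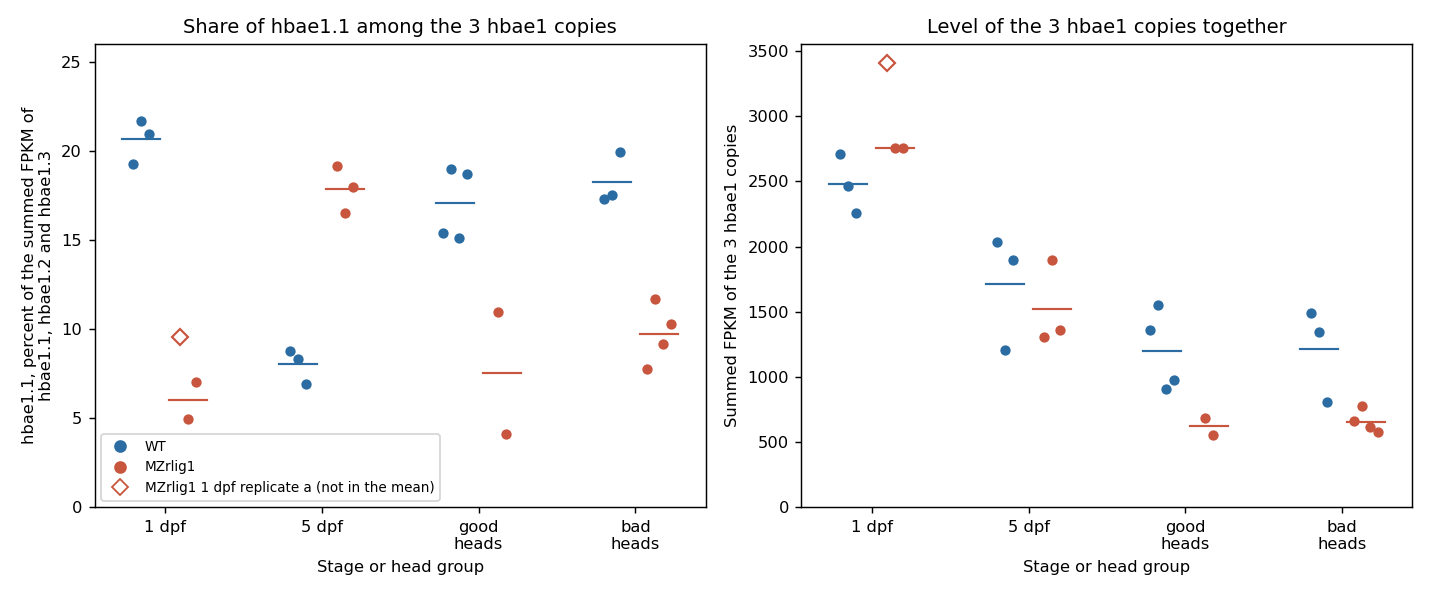
Left, hbae1.1 as a percentage of the summed FPKM of hbae1.1, hbae1.2 and hbae1.3 in every library; right, that sum in FPKM; lines are group means. The WT libraries are high at 1 dpf and low at 5 dpf in the left panel, those of MZrlig1 the other way round, and in heads WT is again high.

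In heads at 5 dpf, where red cells arrive with the blood of the vessels, hbae1.1 and hbae1.3 were lower in MZrlig1. Gene hbae1.1 gave 1105, 1483, 729 and 875 counts in WT good heads and 1357, 1382 and 930 in WT bad heads. In MZrlig1 it gave 333 and 126 counts in good heads and 277, 404, 291 and 340 in bad heads. All 6 MZrlig1 head libraries lay below all 7 WT head libraries. Averaged over both behaviours the difference was -1.90 ± 0.31 (log2, 3.74-fold, adjusted p 0.00316). Gene hbae1.3 gave 1678, 1888, 1183 and 1140 counts in WT good heads, 1992, 1932 and 1679 in WT bad heads, 834 and 794 in MZrlig1 good heads, and 1020, 1069, 876 and 869 in MZrlig1 bad heads. In raw counts no MZrlig1 library reached a WT library, and the difference was -0.78 ± 0.19 (adjusted p 0.0416). Scaled by total counts the genotypes overlapped. MZrlig1 bad replicate 2, with a total of 12185909, then lay above WT good replicates 3 and 4, with totals of 14609207 and 13159027. The call of hbae1.1 held without any 1 of the 13 libraries, with an adjusted p of 0.0276 at most. That of hbae1.3 was lost in 9 of these 13 omissions, all but those of WT good replicates 2, 3 and 4 and MZrlig1 bad replicate 2, with adjusted p-values up to 0.249.

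These 2 were the members called of 4 tested, where 1.38% of all genes were called lower. The other 2 tested lay below 0 without passing. Gene hbae3 held 2874 to 5554 counts in the WT heads and 2308 to 3798 in the MZrlig1 heads, with overlap, a difference of -0.50 ± 0.21 (adjusted p 0.338, 95% interval -0.91 to -0.10). Gene hbae5 held 8 to 42 counts in WT and 5 to 16 in MZrlig1, a difference of -1.08 ± 0.38 (adjusted p 0.222). The median over the 4 members was -0.93, beside -0.01 over all genes. Gene hbbe3 was at 0 or 1 count in WT heads and at 0 to 5 in MZrlig1 heads, too few to test.

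By behaviour, hbae1.1 was the 1 member called in bad heads, at -1.77 ± 0.37 (log2, adjusted p 0.0426), where 0.596% of all genes were called lower. That call was lost without any 1 of the 3 WT bad heads, without MZrlig1 bad replicate 1, 3 or 4 and without WT good replicate 1 or 4, with adjusted p-values up to 0.181. In good heads, with 2 MZrlig1 libraries, none of the 4 was called, against 0.298% of all genes, and hbae1.1 stood at -2.04 ± 0.47 (adjusted p 0.073). The genotype difference itself was not found to depend on behaviour: the interaction was called for no member and for 0% of all genes, and for hbae1.1 it was 0.27 ± 0.57. Between bad and good heads of WT no member was called, with 0% of all genes called. The 95% interval for hbae1.1 ran from -0.67 to 0.78 (log2) and that for hbae5 from -0.09 to 1.74, so sizeable differences were not excluded. In MZrlig1 no member was called either, where 0.00466% of all genes were, and the interval for hbae1.1 ran from -0.54 to 1.19.

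**Figure D4:**
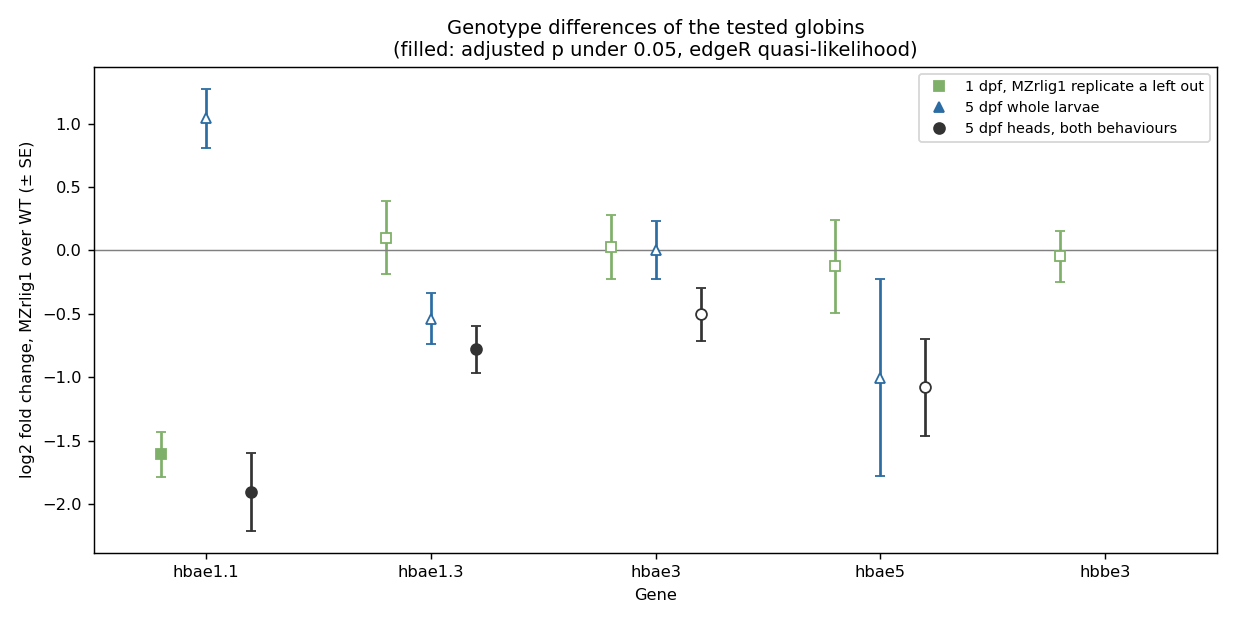
Log2 fold change of MZrlig1 over WT, with its SE, for the embryonic globins tested at 1 dpf (replicate a of MZrlig1 left out), in whole larvae at 5 dpf and in heads at 5 dpf (both behaviours averaged); filled symbols passed an adjusted p of 0.05 in the edgeR quasi-likelihood test. For hbae1.1 the difference is below 0 at 1 dpf and in heads and above 0 in whole larvae at 5 dpf.

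Of the 4 HBE1 identifiers tested in heads, 3 were called lower in MZrlig1 averaged over behaviours, where 1.38% of all genes were. Neither hbae1.2 nor hbae4 was called, at -0.71 ± 0.24 and -1.47 ± 0.49 (log2). Identifier ENSDARG00000115405 differed by -1.86 ± 0.25 (log2, adjusted p 0.000809), ENSDARG00000087390 by -1.10 ± 0.21 (adjusted p 0.0102) and ENSDARG00000045143 by -0.67 ± 0.15 (adjusted p 0.0343). The most abundant, ENSDARG00000113599, stood at -0.23 ± 0.17 (adjusted p 0.754). The 16 identifiers together took 0.125% ± 0.0326 of counts in WT good heads and 0.130% ± 0.0258 in WT bad heads, against 0.0831% ± 0.00333 and 0.0796% ± 0.00983 in MZrlig1. All MZrlig1 heads lay below all WT heads on this measure, although the lowest WT library, at 0.0929%, was close to the highest MZrlig1 library, at 0.0927%. The share of hbae1.1 among the 3 hbae1 copies was 17.1% ± 2.08 and 18.3% ± 1.47 in WT good and bad heads, and 7.53% ± 4.87 and 9.73% ± 1.67 in those of MZrlig1.

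Markers of red cells (5 matched of 6 listed, with 0 of the 5 at 0 in any head group) summed to 94.8 to 146 CPM in WT good heads and 106 to 133 in WT bad heads, and to 92.9 to 107 and 78.0 to 105 in those of MZrlig1, so that the genotypes overlapped in good heads and were apart in bad heads. None of the 5 red cell markers was called between the genotypes in heads, where 4 of 5 lay below 0 with a median of -0.29 (log2). Myeloid markers (5 matched of 8) moved the other way in good heads, with 110 to 148 CPM in MZrlig1 and 43.5 to 69 in WT, and overlapped in bad heads (57.3 to 94.6 and 56.4 to 62.5). Thrombocyte markers (3 matched of 4) also lay higher in MZrlig1 good heads, at 4.38 to 5.48 CPM against 2.15 to 2.82 in WT, and overlapped in bad heads (2.95 to 4.49 and 2.62 to 3.11). The red cell markers already summed to 63.4 CPM in WT and 99.2 in MZrlig1 at shield, and to 180 and 122 at bud, when globin counts were low. Myeloid markers summed to 358 CPM in WT at shield and to 25.6 at 1 dpf. Neither sum need therefore measure its cell type alone. The part of these markers in the globin difference was not tested.

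The genotype difference of hbae1.1 in heads was tested against that in whole larvae of the same age in a joint fit, added after the data had been seen. It was lower in heads by a log2 difference of -2.96 ± 0.48 (adjusted p 0.00317), the 1 member called of 4 tested, where 1.12% of all genes were called. For HBE1 identifier ENSDARG00000115405 the difference was -3.10 ± 0.40 (adjusted p 0.000361). For hbae3 it was -0.52 ± 0.37 and for hbae1.3 -0.25 ± 0.32, with intervals of -1.24 to 0.20 and -0.89 to 0.38. Whole larvae came from the series raised in the dark and heads from that raised in a light cycle, so tissue, rearing and collection cannot be told apart here.

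Other genes of the red cell programme were read over the same interval. Between bud and 1 dpf 15.1% of all genes were called higher in WT and 12.4% in MZrlig1, or 37.4% and 33.9% without replicate a. Of 11 genes tested for the red cell membrane and iron uptake 9 were called higher in WT and 6 in MZrlig1, or 10 and 9 without replicate a. SPTB, the beta-spectrin of the membrane skeleton, rose by 8.58 ± 1.2 (log2) in WT and by 8.86 ± 1.22 in MZrlig1 (9.47 ± 0.34 without replicate a), and SLC40A1, the iron exporter ferroportin, by 5.35 ± 0.45 and 4.84 ± 0.44 (5.13 ± 0.22). Of the 10 genes of haem synthesis 4 were called higher in each genotype, or 7 without replicate a. Among them alas2, the red cell form of the first enzyme of the pathway, rose by 5.41 ± 0.67 in WT and by 4.66 ± 0.64 in MZrlig1 (5.09 ± 0.33). Of 12 erythroid transcription factors tested 7 were called higher in WT, with TAL1, a master factor of blood formation, at 5.97 ± 0.79. In MZrlig1 2 of the 12 were, a share near that of all genes, and without replicate a 10 of 13 were called in each genotype. The summed red cell markers, which include alas2, did not rise over this step. They stood at 180 ± 48.3 CPM (SD) at bud and 124 ± 12.2 at 1 dpf in WT. In MZrlig1 they stood at 122 ± 13.2 at bud and at 89.8 ± 58.7 at 1 dpf, or 124 ± 6.17 without replicate a.

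From 1 to 5 dpf most genes of haem synthesis fell. Without replicate a 9 of its 10 genes were called lower in each genotype, where 35.0% of all genes were in WT and 32.5% in MZrlig1, with medians of -1.42 in WT and -1.36 in MZrlig1 (log2) beside 0.04 and 0.06 over all genes, and UROD, which converts uroporphyrinogen, fell by 2.79 ± 0.18 in WT and by 3.00 ± 0.20 in MZrlig1. With replicate a 3 of 10 were called lower in each, against 8.38% and 9.26% of all genes. Globins that work outside red cells rose over the same interval, 3 of 4 tested being called in both genotypes with and without replicate a. Of all genes 20.5% were called higher in WT and 23.0% in MZrlig1 with it, or 38.8% and 37.3% without it. With replicate a in the fit cygb2, a cytoglobin, rose by 6.58 ± 0.73 in WT. NGB, neuroglobin of nerve cells, rose by 5.97 ± 0.91, and mb, the myoglobin gene, by 3.30 ± 0.48. Catalase (CAT), which breaks down hydrogen peroxide, rose by 4.24 ± 0.13 in WT without replicate a.

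Between the genotypes few genes of these lists were called at most stages, and calls over all genes varied by stage as well. Of all genes 409 of 12925 were called at the 4-cell stage, 573 of 14903 at shield and 129 of 15846 at bud. At 1 dpf 0 of 18261 were, or 194 of 18758 without replicate a. At 5 dpf 209 of 20465 were, and in heads averaged over behaviours 586 of 21464. Whether the lists differed from all genes was not tested. At 1 dpf, with and without replicate a, and in heads averaged over behaviours, 0 genes of the lists for haem synthesis, erythroid transcription factors, membrane and iron uptake, red cell enzymes and globins outside red cells were called. At 5 dpf 1 of 10 red cell enzymes was, BPGM, which in mammals makes the red cell regulator of oxygen affinity, at 0.80 ± 0.13 (log2, adjusted p 0.028). At bud 1 was, HK1, a hexokinase that starts glycolysis, at 1.1 ± 0.12 (adjusted p 0.0165), as it was at shield, at 1.57 ± 0.20 (adjusted p 0.00399). The bud call of HK1 was lost without MZrlig1 replicate a or without replicate c, where 0 of all genes were called. At sphere, where 5433 of 15093 genes were called, 5 were, among them BPGM at -0.76 ± 0.22, the opposite sign of its value at 5 dpf, and at the 4-cell stage 1 was, blvrb, a biliverdin reductase, at -0.97 ± 0.22. In heads the median of the 10 genes of haem synthesis was -0.06 and that of the 13 transcription factors -0.21, beside -0.01 over all genes. Of haem synthesis, alas2 stood at 30.8 ± 7.88 and 31.1 ± 7.64 CPM in WT good and bad heads and at 21.7 ± 5.70 and 19.6 ± 2.35 in those of MZrlig1, apart in bad heads and overlapping in good heads, and was not called. It was picked out after its values had been seen.

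Genes whose course was most like that of the embryonic members were sought by Pearson's r of log2(CPM + 1) with their summed CPM. Over the 36 whole-embryo libraries these were myl13 (r = 0.988), HAO1 (0.987), icn2 (0.984), c6.2 (0.980) and twist1b (0.979), among 17687 genes. Without replicate a smyhc1 (0.991), myl13 (0.990), COL2A1 (0.989), myhz1.3 (0.988) and ACTA1 (0.987) led instead, so that 1 of the 5 was shared. The libraries share stage, and any gene that comes on between bud and 1 dpf scores high on this measure. Over the 13 heads, where stage is fixed, the most alike were CRK (0.942), EIF6 (0.941), alas2 (0.939), DDOST (0.938) and CLIC4 (0.933), among 15283 genes. Genotype is not fixed there, and globins were lower in the MZrlig1 heads, so any gene lower in those heads can score high. Of the 5 named, alas2 belongs to haem synthesis in red cells. No such search was made for hbaa1, whose counts were too few.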

How the data were processed

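Poly(A) RNA was sequenced from pools of whole zebrafish embryos and of larval heads. The authors deposited raw counts per gene, FPKM and, for each sample set, normalised expression values (signal), of which the counts are the basis of every test here. The submitters' processing notes name STAR 2.7.10b, Salmon 0.14.1, DESeq2 1.42.1 and the build GRCz11; which tool made which file, and whether counting used strand, is not given in the sources used here. Globin copies could share or split reads, which was not tested, and genes that overlap cannot be told apart.

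The members, gene lists and comparisons were chosen with earlier results of these data known. Counts were fitted across all genes, separately for the stage series and the heads, with edgeR 4.0.16 in R 4.3.3 (TMM normalisation, filterByExpr for low counts, quasi-likelihood test, Benjamini-Hochberg adjustment). A gene was called at an adjusted p under 0.05. Errors of fold changes are standard errors worked back from the fold change and the test statistic. The 95% intervals of fold changes span 1.96 of these errors on either side. They make no allowance for the few libraries and are likely too narrow. Alternatives used DESeq2 1.42.0, other scaling, no filter, a replicate block and each library left out. The fitting code was tested on simulated data. Levels between genes were compared in the deposited FPKM, and shares are percentages of summed FPKM. Intervals of count ratios cover counting error only.

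All measured members were named. Of the other lists, the 4 called genes with the smallest p-values in a comparison could be named, and for likeness the 5 genes with the highest r. At bud, libraries of the same letter deviated together between the genotypes (r = 0.357, 0.486 and 0.327 across genes). In the fit from bud to 1 dpf the bud libraries did so again (0.148, 0.317 and 0.323). Libraries of unlike letters were not compared, and in heads r for shared numbers ran from -0.511 to 0.518. Whether the letters pair the bud libraries was thus not settled. Total counts lay between 12158453 and 18355308 per library.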

Additional observations from a re-analysis of the deposited data

Results flagged for a closer look

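In WT at the 4-cell stage hbae3 had 22 counts in replicate a and 0 in the other 3 libraries, so that the gap to the nearest library over the range was 1. Where all other libraries hold 0, this value is 1 whatever the count, so it does not measure how unusual the library is.

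The change of hbae1.1 between stages differed between the genotypes when replicate a of MZrlig1 at 1 dpf was left out. From bud to 1 dpf the difference, MZrlig1 minus WT, was -3.35 (log2), and from 1 to 5 dpf it was 2.68. For HBE1 identifier ENSDARG00000115405 the latter was 2.99. All 3 share the 1 dpf libraries, so they are not independent of each other. None of the 3 was called when all whole-embryo libraries but replicate a were fitted together.

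At 5 dpf the genotype difference in heads differed from that in whole larvae, by -2.96 (log2) for hbae1.1 and by -3.10 for ENSDARG00000115405.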

How the results depend on the processing

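In all, 1025 values were recomputed under other settings, of which 842 were rated the same as reported. Among the recomputed values were 619 gene fold changes, of which 515 kept their direction and their side of the threshold. Counts of called members, levels, shares and likeness were rated only by how near they stayed to the reported value. Changed counts of members, reversals and calls lost with another model follow here; beyond the choice of libraries and genes summed, the cause was not tested.

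Of the 5 members called between bud and 1 dpf in each genotype, DESeq2 called 2 in each, hbae1.1 and hbbe3. It gave no adjusted p for hbae1.3, hbae3 and hbae5, which were therefore counted as not called. Leaving out single libraries left 2 to 5 in WT. Of the 3 called between 1 and 5 dpf in MZrlig1, DESeq2 called 1 and gave no adjusted p for hbae1.3 and hbae3. With the replicate block 1 was left, as in a fit of all whole-embryo libraries but replicate a of MZrlig1 at 1 dpf. When single libraries were left out, 1 to 4 were called. Of the 2 called in WT, 1 was left with DESeq2 size factors and 1 to 2 when single libraries were left out. Without replicate a, 1 member, hbae1.1, was called in place of 0 for the genotype at 1 dpf and for its difference between stages in both steps, with edgeR and with DESeq2. The replicate block without replicate a gave 1 as well at 1 dpf and from 1 to 5 dpf, but 0 from bud to 1 dpf. Single omissions gave 0 to 1 in these 3 comparisons. For the genotype at 5 dpf DESeq2 called 1 in place of 0, and single omissions 0 to 1. In heads the replicate block called 1 in place of 2 averaged over behaviours (single omissions 1 to 2) and 1 in place of 0 in good heads, as did DESeq2 (0 to 1). In bad heads no filter on low counts called 0 in place of 1 (0 to 1). Bud libraries of the same letter deviated together, though whether the letters pair them was not settled. The block changed no member's call in the genotype test at bud. From bud to 1 dpf the block lost hbae5 in WT (adjusted p 0.0523). In fits without bud libraries the samples share only a letter or number; there the block also lost hbae1.3 in heads (0.0524) and, from 1 to 5 dpf, hbae1.3 and hbae3 in MZrlig1 (0.0725 and 0.234) and ENSDARG00000115405 in WT (0.0636) and between genotypes at 5 dpf (0.136). Fits of all whole-embryo libraries lost the last (0.541 or more) and hbae1.3 in MZrlig1 from 1 to 5 dpf (0.0524, or 0.358 without replicate a), and DESeq2 size factors lost hbae1.1 and ENSDARG00000115405 in WT (0.115 and 0.128). For sphere no paired analysis was possible because the groups share 1 letter.

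Directions reversed as follows (log2). At 1 dpf hbae1.1 went from -0.28 to 0.13 and 0.05 without MZrlig1 replicate b or c, and HBE1 ENSDARG00000115405 from -0.17 to 0.28 and 0.18; over all single omissions they ranged from -1.61 to 0.13 and from -1.72 to 0.28. From 1 to 5 dpf in MZrlig1, with replicate a left out, the values with DESeq2, in the fit of all other whole-embryo libraries, with the replicate block and by omission alone were 0.81, 0.79, 0.71 and 0.76 for hbae1.1, 0.16, 0.14, 0.067 and 0.11 for hbae3, and 1.03, 1.02, 0.97 and 0.99 for ENSDARG00000115405, and over other single omissions these genes reached as low as -0.72, -4.32 and -0.75.

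The levels and percentages that follow leave out replicate a of MZrlig1 at 1 dpf. In the deposited normalised values the log2 ratio of 5 to 1 dpf was -1.33 in WT and 1.22 in MZrlig1 for hbae1.1. It was 0.38 and -0.39 for hbae1.3, and 0.71 and 0.56 for hbae3. Shares by counts in place of FPKM at 1 dpf were 33.2% in WT and 35.0% in MZrlig1 for hbbe3, 33.8% and 38.3% for hbae3, and 14.9% and 5.12% for hbae1.1, which stood at 14.4% in MZrlig1 at 5 dpf. Among all 16 identifiers hbbe3 held 21.3% and 20.9% at 1 dpf and 0.00743% in WT at 5 dpf, hbae3 16.9% and 17.6%, then 22.3% and 24.2%, and hbae1.1 6.55% and 2.12%, then 2.03% and 4.74%. Of the 5 genes most like the globins in whole embryos, 3 were shared with a pseudocount of 0.1 and 1 without replicate a.

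Over all genes, counts of calls spanned 4337 to 15972 in WT and 4806 to 15122 in MZrlig1 from 1 to 5 dpf (6141 and 6870 as reported), 1653 to 13403 and 1464 to 11842 from bud to 1 dpf (4481 and 3877), 0 to 633 at bud (129), 0 to 395 at 1 dpf (0), 25 to 383 at 5 dpf (209), 249 to 958 in heads averaged (586), 88 to 398 in bad heads (211), 33 to 455 in good heads (152) and 145 to 430 for heads against whole larvae (245). Groups of 2 to 4 pools limit what could be detected, and hbae5, hbaa1 and every globin before 1 dpf rest on few counts.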
